A study of Mus musculus with 36 samples.

Results

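Valsartan was compared with vehicle in the ligated left carotid artery of 129X1/SvJ mice dosed from before the operation, over every expressed gene. The comparison took all libraries that the labels place in those groups, 3 given valsartan at 27 mg/kg/day and 3 given vehicle at 2 mL/kg/day, which is 6 of the 36 libraries of the study. Both groups were dosed for 16 days, starting 2 days before ligation, and the artery was taken 14 days after it. All mice were of 1 inbred strain and had the same operation, so no unligated artery enters the comparison. The labels name no transgene. The other groups of the study were C57BL/6J mice, mice given sacubitril/valsartan at 60 mg/kg/day (valsartan combined with a drug that blocks the peptidase neprilysin), and a therapeutic schedule of 7 days that began 7 days after ligation. Ages are not given in the sources used here. Of 49568 gene symbols in the count table, 18628 had enough counts to be tested.

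Valsartan blocks the type 1 angiotensin receptor, which in mice is encoded by the genes Agtr1a and Agtr1b. Angiotensin II is made from angiotensinogen by renin and then by angiotensin-converting enzyme, and its receptor makes smooth muscle cells contract, and drives growth, oxidant production and matrix deposition in the wall. Carotid ligation stops flow through the vessel, and over the following weeks the wall remodels inward and a neointima of smooth muscle cells can form. The study asked how these drugs affect such remodelling in strains that differ in it.

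No gene passed the test in this comparison. By edgeR's quasi-likelihood test with Benjamini-Hochberg adjustment, 0 of 18628 genes (0%) had an adjusted p under 0.05, and the smallest adjusted p was 0.892. At an unadjusted p under 0.05 there were 765 genes (4.11%), of which 540 (2.90%) had higher and 225 (1.21%) lower valsartan values. DESeq2's Wald test called 4 genes, all lower under valsartan, and had 1097 at an unadjusted p under 0.05. Those 4, Skint10, Csn2, Igkv14-100 and Ighv1-55, had 0 counts in every valsartan library and in vehicle replicate 1, with at most 57 counts in any library. The valsartan and vehicle libraries did not overlap for 1055 genes (5.66%), 343 (1.84%) higher and 712 (3.82%) lower. The precision was moderate: the median 95% interval of a log2 difference reached 0.76 to each side, a 1.69-fold change. For 9178 genes the whole interval lay within a doubling and halving, and for 9419 it reached beyond them. A gene below is therefore given by its values, and none is described as having risen or fallen.

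Before single genes are described, the makeup of the libraries has to be given, because the 6 arteries did not carry the same neighbouring tissue. CPM are counts per M (mega) counts of the library, scaled by edgeR's TMM factors. Rag1, part of the recombinase of immature lymphocytes and here a marker of thymus, was at 0.380, 0.179 and 122 CPM in valsartan replicates 1, 2 and 3 and at 0.115, 59.7 and 559 CPM in vehicle replicates 1, 2 and 3. Skeletal muscle actin, Acta1, was at 9403, 609 and 5745 CPM under valsartan and at 3713, 2.28 and 1580 CPM under vehicle. Tyrosine hydroxylase, Th, a marker of sympathetic neurons and carotid body cells, was at 167.1, 195 and 12.6 CPM under valsartan and 34.98, 3.99 and 97.9 CPM under vehicle. Smooth muscle myosin, Myh11, was present in all libraries, at 546, 189 and 40.5 CPM under valsartan and 472, 673 and 115.7 CPM under vehicle. Thymus transcripts were thus low in valsartan replicates 1 and 2 and in vehicle replicate 1, while the other 3 are called Rag1-rich (10 CPM or more), and muscle transcripts were nearly absent from vehicle replicate 2. Total counts ran from 21.3 M to 25.76 M and correlations of log2 CPM between libraries from 0.881 to 0.965. In bulk tissue, fewer cells of a type and less RNA per cell cannot be told apart.

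**Figure D1:**
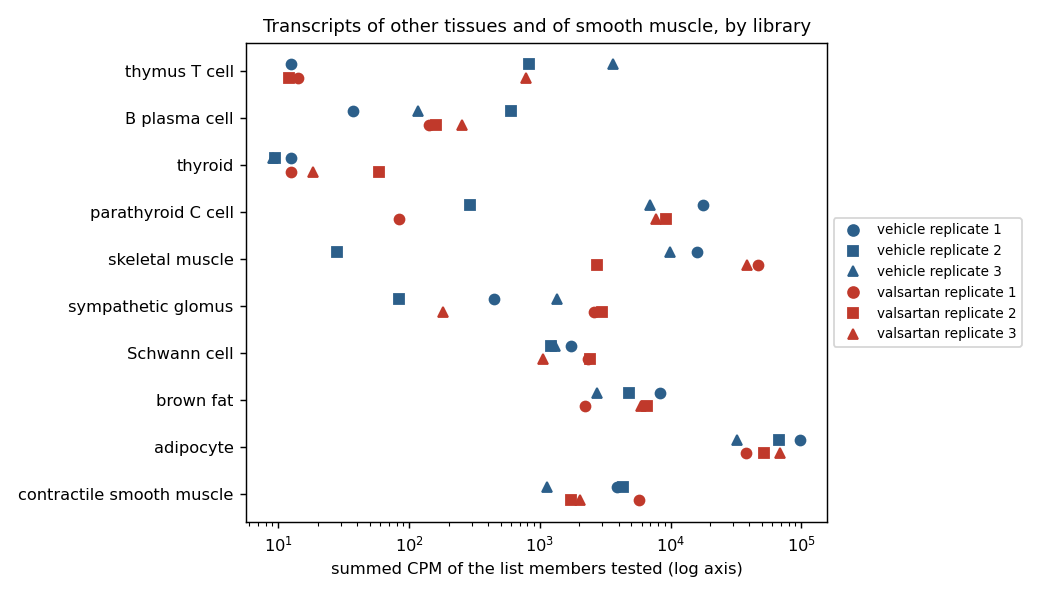
Summed CPM of the tested members of marker lists for other tissues and for contractile smooth muscle, on a log axis, with 1 point per library (blue, vehicle; red, valsartan; marker shape, replicate). The thymus and T cell sum ran from 12.1 to 781 CPM under valsartan and from 12.5 to 3621 CPM under vehicle, and the skeletal muscle sum was 28.2 CPM in vehicle replicate 2 against 46490 CPM in valsartan replicate 1.

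The tested genes of the renin-angiotensin system, which the drug acts on, overlapped between the groups, some with a wide spread within a group. The low-count receptor gene Agtr1b, which missed the count filter, had fewer counts in every valsartan library than in any vehicle library. Of 20 genes listed, 17 were tested. None of the 17 passed, and none had an unadjusted p under 0.05 (4.11% of all genes did). In none were the libraries of the groups separate (5.66% of all genes were). Their median log2 difference was 0.18, against -0.04 over all genes, with 11 values above 0 and 6 below. The sign of that median was not stable: it was between -0.20 and 0.19 over 11 alternative settings.

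Agtr1a (chr13:30336441-30382867, GRCm38, plus strand), the main vascular receptor for angiotensin II in mice, was at 20.3, 18.03 and 10.9 CPM under valsartan and at 16.5, 14.7 and 10.48 CPM under vehicle. The groups overlapped, and the log2 difference was 0.24 (SE 0.36, 95% interval -0.49 to 0.98, adjusted p = 0.936 by edgeR). Agtr1b (chr3:20314473-20367177, minus strand), the closely related second receptor gene of rodents, had 1, 2 and 2 counts under valsartan and 10, 14 and 6 counts under vehicle. It missed the filter on low counts. The ratio of summed counts, 5 against 30 and scaled to the library totals, was 0.171, with an exact binomial 95% interval of 0.0517 to 0.444 that covers counting error only. In a fit with no filter, over 34625 genes, its log2 difference was -2.55 (SE 1.02, unadjusted p = 0.0182, adjusted p = 0.918 by edgeR). The Rag1 values of these libraries are given above, and the part of tissue content in the Agtr1b counts was not tested. In the other 129X1/SvJ and C57BL/6J groups Agtr1b counts ran from 0 to 12 per library. Under the therapeutic schedule in 129X1/SvJ mice they were 4, 7 and 7 with valsartan and 3, 4 and 2 with vehicle.

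Upstream of the receptor, renin (Ren1, chr1:133350510-133360325) was near its detection limit, at 0.712, 0.358 and 0.566 CPM under valsartan and 0.401, 0.664 and 0.378 CPM under vehicle. Angiotensinogen (Agt), the precursor, ran from 1.70 to 4.65 CPM over the 6 libraries. Angiotensin-converting enzyme, Ace (chr11:105967945-105989964), was at 453, 115 and 242 CPM under valsartan and at 306, 298 and 182.4 CPM under vehicle. Its valsartan libraries span the whole vehicle range, and the difference was 0.04 (SE 0.53, adjusted p = 0.997 by edgeR). The value turned negative without valsartan replicate 1, at -0.55, which shows how much that library sets it.

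The peptidases that break angiotensin peptides down showed no common direction. Neprilysin (Mme, chr3:63241537-63386030) was at 53.2, 112 and 176.4 CPM under valsartan and 125, 102 and 69.1 CPM under vehicle (difference 0.21, SE 0.43, adjusted p = 0.965 by edgeR). Mme reversed to -0.26 without valsartan replicate 3. Glutamyl aminopeptidase (Enpep), which turns angiotensin II into angiotensin III, was at 18.8, 9.89 and 21.4 CPM against 22.4, 25.1 and 20.5 CPM, a difference of -0.44 (unadjusted p = 0.0786). The insulin-regulated aminopeptidase Lnpep had the smallest p of the pathway (0.0606), and its difference of 0.93 came from 1 library: valsartan replicate 3 was at 44.6 CPM and the other 5 libraries between 5.46 and 12.3 CPM. The type 2 receptor gene Agtr2 was between 0.617 and 1.65 CPM in all libraries. The receptor-associated proteins Agtrap and Atp6ap2 differed by -0.21 and 0.26.

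**Figure D2:**
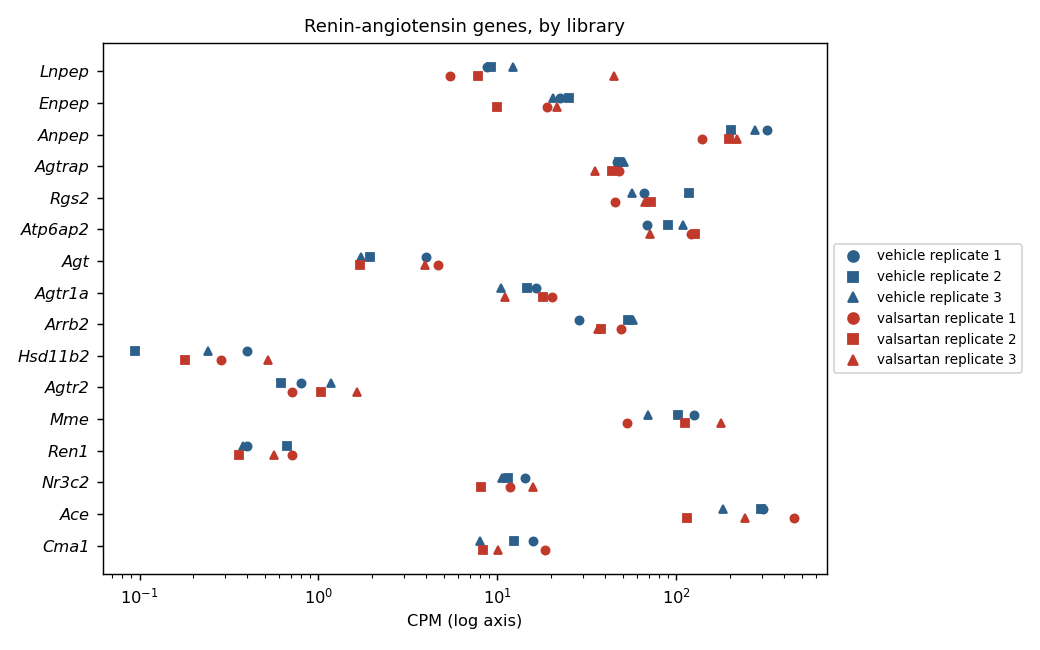
CPM of 16 of the 17 tested renin-angiotensin genes on a log axis, 1 point per library (blue, vehicle; red, valsartan), ordered from the smallest p at the top. In every gene drawn the red and blue points overlap, and the 44.6 CPM of Lnpep in valsartan replicate 3 stands apart from its group.

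Genes that angiotensin II is known to induce early in smooth muscle had a median difference of -0.30 over 17 tested of 18 (all genes, -0.04), 11 below 0 and 6 above. None passed and none had an unadjusted p under 0.05 (4.11% of all genes did). Rcan1, a calcineurin inhibitor induced by receptor signalling, was at 69.0, 61.7 and 48.8 CPM under valsartan and 53.9, 38.7 and 39.9 CPM under vehicle, so 2 of the valsartan libraries lay above all vehicle libraries (0.44, SE 0.22, unadjusted p = 0.0526). The nuclear receptor Nr4a3 was at 2.90, 2.77 and 3.82 CPM under valsartan and 4.18, 6.07 and 5.74 CPM under vehicle (-0.75, SE 0.42, unadjusted p = 0.0881). Its libraries were separate, as in 1 of the 17 members in all and in 5.66% of all genes. Ctgf, a growth factor-binding matrix protein, was at 225, 85.1 and 34.8 CPM against 231, 237 and 49.1 CPM. It was lowest in replicate 3 of each group, as Myh11 was, and the part of smooth muscle content in these values was not tested. The list median turned positive, 0.24, without the Rag1-rich libraries, a fit that keeps 1 vehicle library. Of the NADPH oxidase and antioxidant genes, 17 of 18 were tested, with a median of -0.27 and no member at an unadjusted p under 0.05.

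Cholesterol genes were the metabolic list whose values lay furthest above the median of all genes. Cells make cholesterol from acetyl-CoA by a chain of enzymes in the endoplasmic reticulum, and also take it up from lipoproteins. The genes for both are switched on together by the transcription factor SREBP-2 when membrane sterol is low. Of 18 genes tested, 16 had a positive difference and the median was 0.49, against -0.04 over all genes. None passed. An unadjusted p under 0.05 with a positive difference was reached by 4 of 18, against 2.90% of all genes, and 2 of 18, Cyp51 and Sc5d, had separate libraries with higher valsartan values, against 1.84%. The median stayed positive under all 11 alternatives run for it, from 0.35 without valsartan replicate 2 to 0.67 without the Rag1-rich libraries. No alternative left out valsartan replicates 1 and 2 together. The summed CPM of the list were 1294, 1663 and 976 under valsartan and 1044, 834.7 and 1043 under vehicle, so valsartan replicate 3 lay within the vehicle range.

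The windows of 250 bases upstream of the RefSeq start (GRCm38.p6) are printed for 3 enzymes of the pathway, because members of this list are known to share promoter elements and their values leaned the same way here. Each is written in the direction of the transcript, and capitals mark CCAAT or its reverse complement ATTGG, the letters known to bind NF-Y, a partner of SREBP-2. They lie at chr5:4104698-4104947 (minus strand) for Cyp51, chr13:119690101-119690350 (plus strand) for Hmgcs1 and chr8:64733579-64733828 (minus strand) for Msmo1.
Cyp51: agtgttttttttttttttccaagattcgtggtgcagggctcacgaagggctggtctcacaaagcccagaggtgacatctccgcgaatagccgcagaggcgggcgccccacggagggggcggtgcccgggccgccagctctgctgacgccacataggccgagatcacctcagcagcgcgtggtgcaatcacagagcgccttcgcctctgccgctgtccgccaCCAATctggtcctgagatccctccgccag
Hmgcs1: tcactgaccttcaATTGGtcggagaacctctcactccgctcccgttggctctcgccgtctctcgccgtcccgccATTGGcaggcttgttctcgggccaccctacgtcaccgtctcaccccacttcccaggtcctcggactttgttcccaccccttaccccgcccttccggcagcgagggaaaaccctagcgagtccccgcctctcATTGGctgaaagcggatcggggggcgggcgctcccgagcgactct
Msmo1: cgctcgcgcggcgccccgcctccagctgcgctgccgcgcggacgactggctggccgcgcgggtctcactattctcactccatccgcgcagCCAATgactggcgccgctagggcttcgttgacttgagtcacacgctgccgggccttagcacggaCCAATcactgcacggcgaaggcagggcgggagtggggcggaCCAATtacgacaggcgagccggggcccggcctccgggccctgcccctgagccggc
The table of promoters matched 10 of the 18 genes, in 12 windows. CCAAT on either strand was found in 10 of the 12 (83.3%), and in 11120 of all 32851 windows of that length (33.8%). The sterol response element of SREBP-2 was also searched for, as an exact sequence. It was found in 0 of the 12 (0%), and in 24 of all 32851 windows (0.0731%). A sequence this rare says little by its absence from 12 windows. These matches describe letters in the windows only.

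Lanosterol demethylase, Cyp51 (chr5:4081145-4104746), was at 35.9, 52.5 and 32.4 CPM under valsartan and at 26.1, 23.7 and 27.2 CPM under vehicle. All 3 valsartan libraries lay above all vehicle libraries, with a difference of 0.65 (SE 0.22, unadjusted p = 0.00749, adjusted p = 0.892 by edgeR). The sterol oxidase Msmo1, which acts later in the same chain, was at 60.7, 80.1 and 29.3 CPM against 27.3, 28.1 and 36.1 CPM (0.89, SE 0.33, unadjusted p = 0.0109). Here valsartan replicate 3 lay within the vehicle range and replicates 1 and 2 well above it. Without valsartan replicate 2 the Msmo1 difference was 0.56 (unadjusted p = 0.114), and with only the 6 libraries in the fit its unadjusted p was 0.0525. The early enzyme Hmgcs1 was at 289, 364 and 204 CPM against 220, 158.8 and 204 CPM (0.56, SE 0.27, unadjusted p = 0.0502). The high value of the vehicle group for Hmgcs1 was in replicate 1, and valsartan replicate 3 lay within the vehicle range.

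Mylip, a ubiquitin ligase that limits cholesterol uptake, is outside this list and was named by the gene-by-gene ranking described below. It was at 45.4, 43.8 and 49.8 CPM under valsartan and 66.4, 60.6 and 53.8 CPM under vehicle (-0.38, SE 0.14). Its libraries were separate, with lower valsartan values, and it did not pass (adjusted p = 0.892 by edgeR). The transcription factor gene Srebf2 itself differed by -0.05, and Lss, which closes the sterol ring, by -0.07.

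Valsartan replicates 1 and 2, where these enzymes were highest, also had the most sympathetic and glomus cell transcripts: the summed CPM of that list were 2606, 2963 and 180 under valsartan and 444, 83.9 and 1353 under vehicle. With 6 tissue scores as covariates in the fit, the sympathetic score among them, the cholesterol median was 0.44 and all 18 differences were positive. In that fit Msmo1 differed by 0.49 (unadjusted p = 0.00365). The Schwann cell list, myelin-making cells that also build much cholesterol, had a median of 0.29 with 15 of 16 members positive, and its summed CPM were 2314, 2396 and 1054 against 1735, 1213 and 1308. Its part in the cholesterol values was not tested apart from the fit with 3 scores, which includes it and gave a cholesterol median of 0.52.

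**Figure D3:**
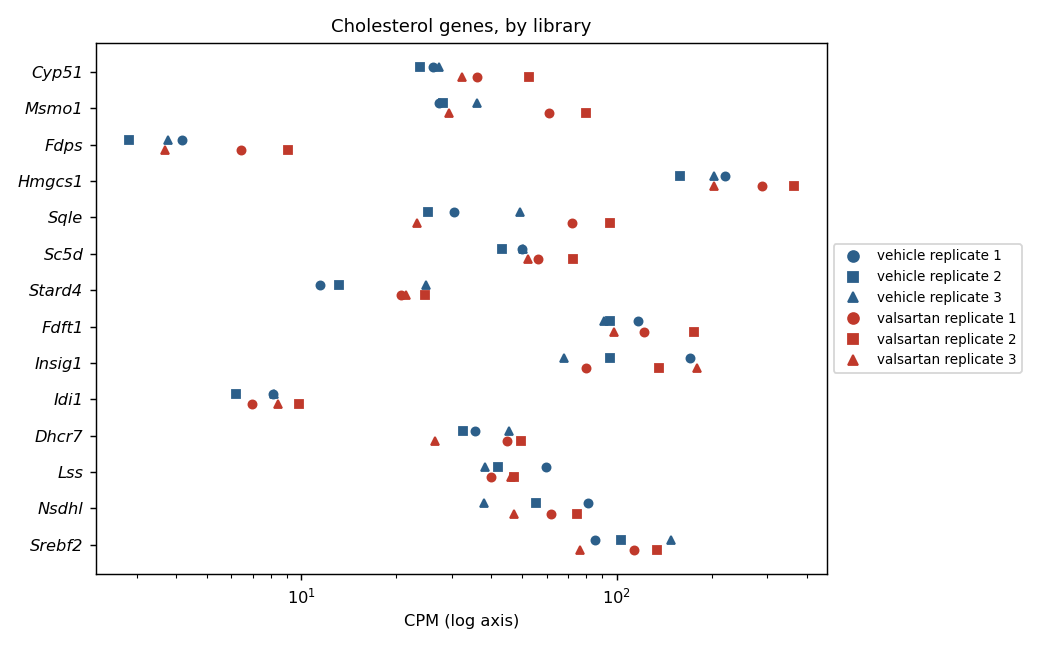
CPM of 14 of the 18 tested cholesterol genes on a log axis, 1 point per library (blue, vehicle; red, valsartan). Red circles and squares (valsartan replicates 1 and 2) lie to the right for most genes, and the Cyp51 points do not overlap between groups.

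The 12 genes of smallest p with higher valsartan values, separate libraries and at least 5 CPM included 2 muscle troponins and 2 aminotransferases. Tnnc1 (chr14:31208312-31211729), the calcium-binding troponin of slow and cardiac muscle, was at 13.2, 4.79 and 9.72 CPM under valsartan and 0.286, 0.380 and 1.07 CPM under vehicle. Its difference was 3.96 (SE 1.08, unadjusted p = 0.00108, adjusted p = 0.892 by edgeR). Tnni1 (chr1:135779434-135810989), the inhibitory troponin of slow muscle, was at 40.2, 5.95 and 15.1 CPM against 0.115, 0.285 and 1.31 CPM (5.10, SE 1.65). Acta1 was at 609 CPM in valsartan replicate 2, the lowest of the 3 for both troponins, and at 3713 CPM in vehicle replicate 1. With the 6 tissue scores, skeletal muscle among them, Tnnc1 differed by 3.24 (unadjusted p = 0.0123) and Tnni1 by 3.45 (unadjusted p = 0.0524). In that muscle score only Myh7 is particular to slow or cardiac muscle, so the fit adjusts little for slow muscle content. The part of slow or cardiac muscle content in the troponin values was not tested. The skeletal muscle list had a median of 1.77 with 18 of 18 members positive. Its only member at an unadjusted p under 0.05 (2.90% of all genes, with higher values) was the slow and cardiac myosin Myh7. Myh7 was at 0.190, 0.0895 and 83.7 CPM against 0.115, 0 and 0.0344 CPM. Myh7 was thus high in 1 library only, valsartan replicate 3.

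Got1 (chr19:43499752-43524605) and Got2, the cytosolic and mitochondrial aspartate aminotransferases of the malate-aspartate shuttle, appeared together. Got1 was at 115, 90.5 and 85.6 CPM under valsartan and 45.1, 28.2 and 54.6 CPM under vehicle, a mean of 96.9 ± 15.5 against 42.6 ± 13.4 CPM (SD). Its difference was 1.18 (SE 0.36) and that of Got2 was 1.09 (SE 0.35), both with adjusted p = 0.892 by edgeR. With the 6 tissue scores they were 0.65 and 0.61. Wt1 (chr2:105126529-105173616), a transcription factor of mesothelium and epicardium, was at 10.8, 6.94 and 4.06 CPM against 2.18, 1.85 and 3.71 CPM (1.49, SE 0.47). The vehicle values of Wt1 end just below the lowest valsartan value. The others were Rbx1, the RING subunit of cullin ubiquitin ligases (0.40), the sugar transporter family member Slc35e3 (0.43), Fam134b, a receptor for autophagy of the endoplasmic reticulum (1.04), Lynx1, a modulator of nicotinic receptors (0.98), the protein repair enzyme Pcmt1 (0.42), Fsd1l (1.27) and the ubiquitin ligase Trim13 (0.70). In these genes valsartan replicate 1 or 2 was the highest library, and replicate 3 the lowest of its group in all but Got2, Tnnc1 and Tnni1. Counts of Got2, which shares exon bases with the opposite-strand gene Gm45760 and has the copy Got2-ps1, and of Rbx1, with the copy Rbx1-ps, are uncertain.

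The 12 genes of smallest p with lower valsartan values differed by less, and 10 of them are described, with differences from -0.34 to -0.91. Pacs1 (chr19:5133158-5273119), a sorting adaptor of the trans-Golgi network, was at 33.3, 32.6 and 32.2 CPM under valsartan and 49.7, 46.1 and 45.2 CPM under vehicle. The difference was -0.52 (SE 0.15, unadjusted p = 0.00179, adjusted p = 0.892 by edgeR), and the valsartan libraries lay within about 1 CPM of each other. Arhgap27 (chr11:103331497-103363692), a GTPase-activating protein, had the greatest difference of the 12, at 12.6, 14.5 and 16.8 CPM against 19.3, 32.5 and 31.0 CPM (-0.91, SE 0.33). Besides Mylip the set held Usb1, which trims U6 RNA (-0.47), the adaptor Sh2d3c (-0.50), Gne, the first enzyme of sialic acid synthesis (-0.37), Itpripl1 (-0.43), Hps1, a factor for lysosome-related organelles (-0.34), the cullin adaptor Klhl36 (-0.52) and Wasf2, which drives branched actin assembly (-0.47). Arhgap27 shares exon bases with Arhgap27os1 and Arhgap27os2, Sh2d3c with 6330409D20Rik and Hps1 with Gm16244, and with no stated strand setting those counts are uncertain.

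**Figure D4:**
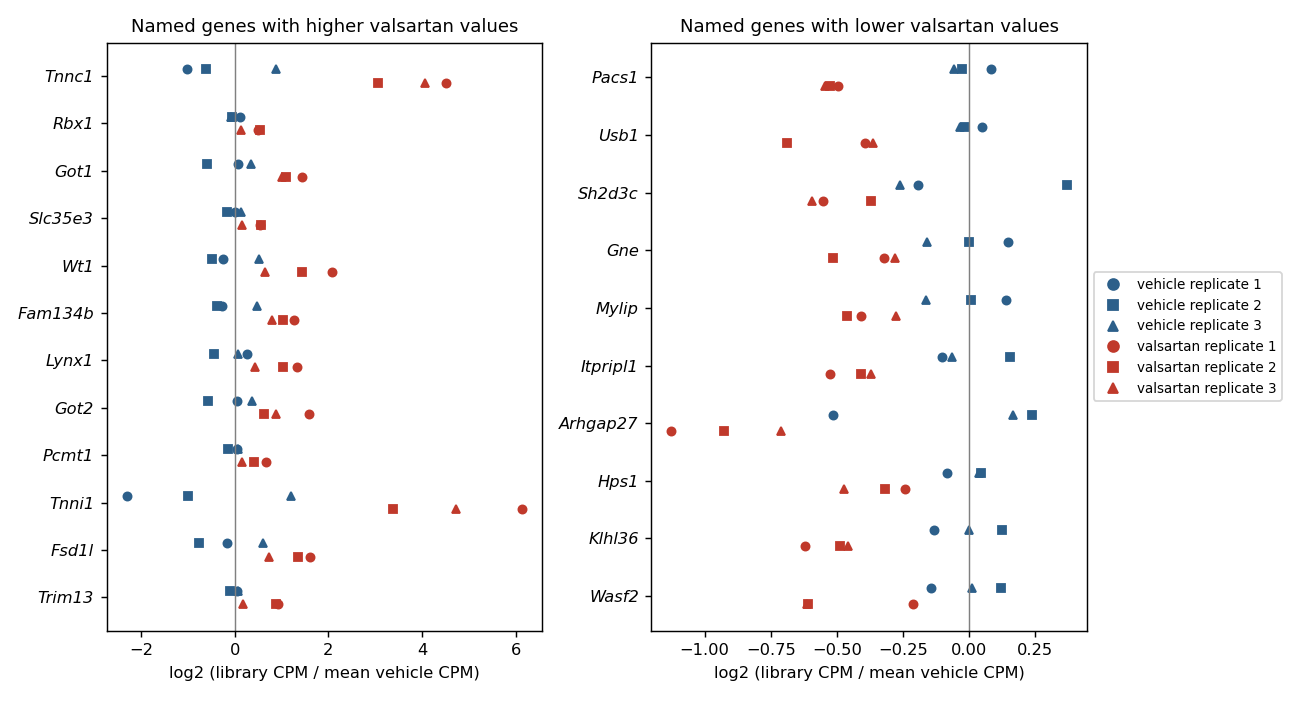
Log2 of the CPM of each library over the mean vehicle CPM, for the 12 genes with higher (left) and 10 of the 12 with lower (right) valsartan values; blue points are vehicle and red points valsartan libraries. The groups are separate in every gene because that was a condition for naming it, and the axes differ: fitted differences reach 5.10 on the left for Tnni1 and -0.91 on the right for Arhgap27.

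The contractile smooth muscle genes, the machinery of the resting artery wall, had a median of -0.45 over 18 tested, with 14 values below 0. None passed, and 1 of 18 in each direction had an unadjusted p under 0.05, against 2.90% of all genes higher and 1.21% lower. Smooth muscle actin, Acta2, was at 1035, 386 and 53.1 CPM under valsartan and 840, 1123 and 170 CPM under vehicle (-0.53, SE 0.78). Replicate 3 was the lowest in both groups, and the spread within a group exceeded the difference. Myocd, the coactivator that switches contractile genes on, was at 1.52, 0.716 and 0.0944 CPM against 2.40, 2.23 and 1.07 CPM (-1.28, SE 0.62, unadjusted p = 0.0499). Casq2, a calcium-binding protein of the sarcoplasmic reticulum that cardiac and slow skeletal muscle also make, was at 42.0, 11.3 and 6.28 CPM against 7.21, 6.31 and 6.08 CPM (1.60, SE 0.55, unadjusted p = 0.00714). Des and Ldb3, shared with skeletal muscle, were likewise positive, at 1.71 and 1.59, and both were highest in valsartan replicates 1 and 3. The summed skeletal muscle CPM were also highest there, at 46490, 2736 and 38550 under valsartan and 16020, 28.2 and 9831 under vehicle. Casq2 did not follow these sums: its valsartan replicate 3 lay within the vehicle range, and its replicate 2 above it. The list median was -1.38 without valsartan replicate 1, 0.04 without valsartan replicate 3 and 0.01 without vehicle replicate 2.

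Matrix genes showed no separation of the groups, within wide errors. The 29 fibrillar matrix genes had a median of 0.09 and the 25 matrix proteases and inhibitors 0.14. Neither had a member at an unadjusted p under 0.05 (4.11% of all genes did). Col1a1, the main collagen of the adventitia and neointima, was at 7045, 1783 and 2525 CPM under valsartan and 3259, 3888 and 2230.03 CPM under vehicle (0.28, SE 0.74, 95% interval -1.24 to 1.79). Valsartan replicate 1 was the highest of all libraries and replicate 2 the lowest, and without replicate 1 the list median was -0.45. Elastin, Eln, was at 3166, 809.8 and 182.3 CPM against 3098, 2304 and 218 CPM (-0.43, SE 1.08). Tenascin C, Tnc, a matrix protein of injured wall, had the smallest p of the list (0.121), at 253, 87.2 and 31.0 CPM against 27.8, 71.0 and 99.8 CPM. The 19 genes of the TGF-beta pathway had a median of -0.18, the 15 of modulated smooth muscle -0.09, the 15 of adventitial fibroblasts 0.11 and the 20 of endothelium -0.18, again with no member at an unadjusted p under 0.05. Among 15 tested genes of the natriuretic peptide and cGMP pathway (median -0.06), Prkg1 and Corin had an unadjusted p under 0.05. Both had positive differences, as 2.90% of all genes did at that p. Prkg1, the cGMP-dependent kinase, was high in valsartan replicate 3 alone, at 17.5 CPM against 0.949 to 2.47 CPM in the others.

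**Figure D5:**
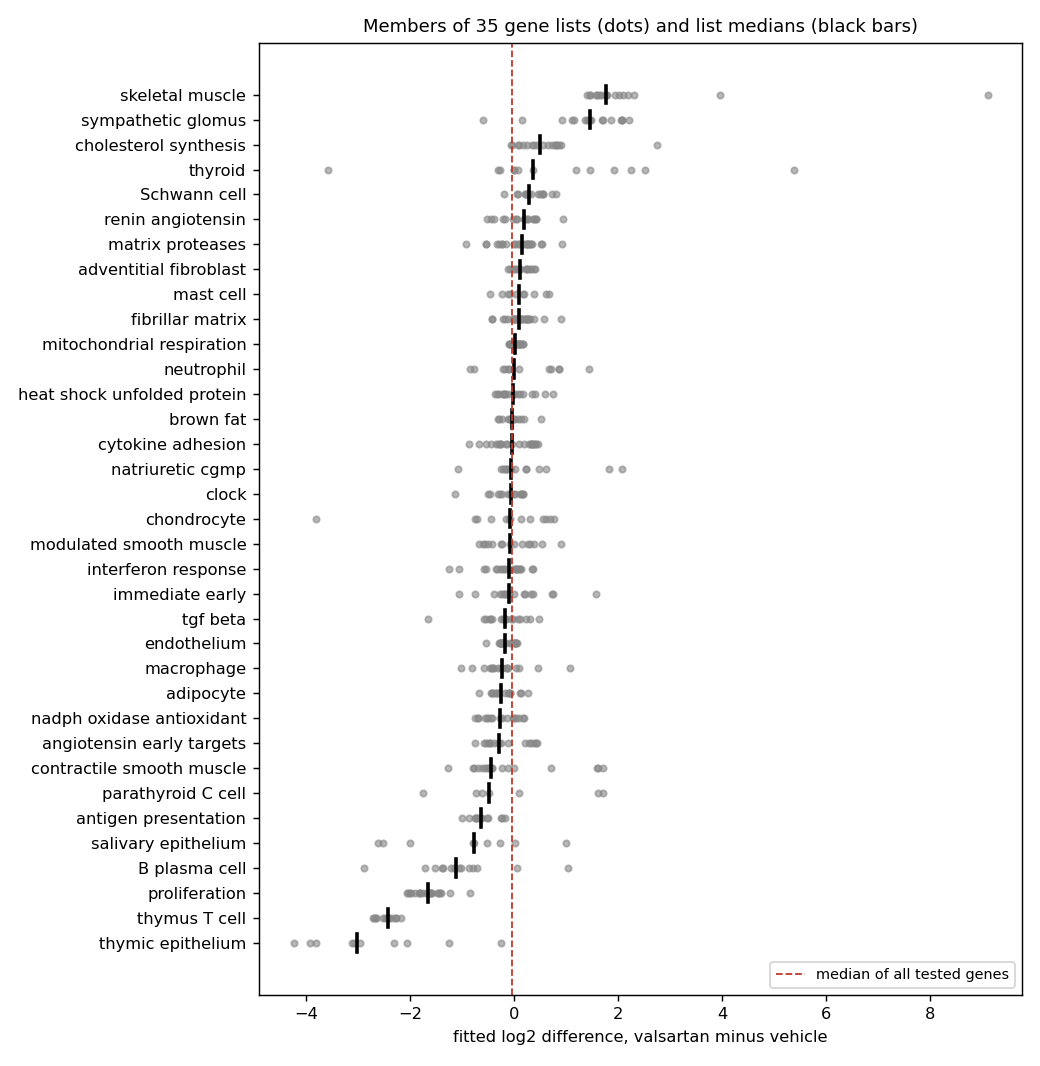
Fitted log2 differences, valsartan minus vehicle, of the tested members (dots) of 35 gene lists, with list medians as black bars and the median of all tested genes as a dashed line. The medians of most wall and inflammation lists lie within 0.5 of 0, those of skeletal muscle (1.77) and sympathetic and glomus cells (1.45) to the right, and those of thymus, T cells and proliferation to the left.

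Inflammatory genes likewise gave no call. The 18 macrophage markers had a median of -0.24, the 23 cytokine, chemokine and adhesion genes -0.05, the 21 interferon-induced genes -0.09, the 12 tested neutrophil genes -0.0043 and the 10 tested mast cell genes 0.10. Without the Rag1-rich libraries the medians were 0.44 for macrophage, 0.53 for cytokine, 0.39 for interferon, 2.02 for neutrophil and -0.22 for mast cell genes, so the sign of each turned. That fit sets 2 valsartan libraries against 1 vehicle library, replicate 1. The macrophage sum of that vehicle library, 965 CPM, was the lowest of the 6 compared, and 2 of its tested neutrophil genes had 0 counts. The interferon median was also 0.42 without vehicle replicate 3. Vcam1, which endothelium and activated smooth muscle use to hold leukocytes, was at 51.6, 34.9 and 40.0 CPM under valsartan and 38.4, 87.3 and 76.5 CPM under vehicle (-0.68, SE 0.36, unadjusted p = 0.0731). Its low vehicle library, replicate 1, was the one with little thymus. The macrophage elastase Mmp12 was at 84.4, 515 and 193 CPM against 6.81, 664 and 835 CPM (-0.93, SE 1.30), with a spread among vehicle libraries far beyond the difference. All 15 antigen presentation genes had a fitted difference below 0, with a median of -0.65. The smallest p was that of H2-DMa, which loads peptides onto class II molecules, at 23.6, 10.9 and 24.7 CPM against 16.2, 57.6 and 26.1 CPM (unadjusted p = 0.0396). Vehicle replicate 2 was the highest library, and it also had the most B cell transcripts, 44.2 CPM of Cd79a against 0.224 to 16.8 CPM elsewhere. Its macrophage sum was likewise the highest, 4426 CPM against 965 to 3240 CPM elsewhere. The part of either cell type in the antigen presentation values was not tested. Without the Rag1-rich libraries the antigen presentation median was -0.05.

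Proliferation genes had a fitted difference below 0 in all 22 members, with a median of -1.66. None passed or had an unadjusted p under 0.05 (4.11% of all genes did). Mki67, a marker of dividing cells, was at 2.56, 4.52 and 84.1 CPM under valsartan and 5.27, 52.6 and 194 CPM under vehicle. The thymus and T cell list had a median of -2.44, with 0 of 16 members positive, and the thymic epithelium list -3.03. The summed proliferation CPM were 82.4, 85.1 and 470 under valsartan and 95.6, 460 and 1348 under vehicle, and the summed thymus CPM 14.0, 12.1 and 781 under valsartan and 12.5, 820 and 3621 under vehicle. The libraries rank alike in both sums except among the 3 low ones and between valsartan replicate 3 and vehicle replicate 2, whose sums lie close. Without the Rag1-rich libraries, which leaves 2 valsartan libraries and 1 vehicle library, the proliferation median was -0.15. It was -0.49 without vehicle replicate 3, -3.06 without valsartan replicate 3 and -0.30 with the 6 scores. Dividing thymocytes are known to express these genes, and their part in the difference was not tested beyond these fits.

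The other tissue lists spread as widely. Sympathetic and glomus cell genes had a median of 1.45 with 16 of 17 positive and a median of -0.02 with the 6 scores. Parathyroid hormone, Pth, was at 6.65, 4058 and 3687 CPM under valsartan and 7644, 133 and 3032 CPM under vehicle, and thyroglobulin, Tg, at 0.190, 46.0 and 10.9 CPM against 0.172, 0.380 and 0.756 CPM. The brown fat gene Ucp1 was between 928 and 3920 CPM in all libraries. Lists of adipocyte (-0.25), brown fat (-0.04) and mitochondrial respiration genes (0.02) had medians near that of all genes, as did clock genes (-0.07), immediate early genes (-0.10), heat shock and unfolded protein genes (-0.02) and chondrocyte genes (-0.09). Single libraries moved the adipocyte, brown fat and respiration medians. They were 0.03, 0.40 and 0.36 without vehicle replicate 1, and -0.55, -0.38 and -0.25 without vehicle replicate 3. In the heat shock list Atf4, the transcription factor of the integrated stress response, was at 175, 179 and 112 CPM against 127, 116.5 and 109.4 CPM (0.40, SE 0.17, unadjusted p = 0.0233). Its valsartan replicates 1 and 2 were above every vehicle library, as in the cholesterol genes. In the immediate early list Atf3, a stress-induced factor, was at 163.9, 219 and 14.2 CPM against 10.9, 40.8 and 82.3 CPM (1.56, SE 0.86, unadjusted p = 0.0791), again in the libraries with the most sympathetic transcripts. Medians of the B cell and plasma cell, salivary epithelium, thyroid and parathyroid lists were -1.12, -0.77, 0.37 and -0.48, and single libraries set most of them. The B cell median was 1.54 without vehicle replicate 2 and -4.77 without valsartan replicate 3. The thyroid median was -0.10 without valsartan replicate 2. The parathyroid median was 0.61 without vehicle replicate 1, 0.88 without vehicle replicate 3 and 0.11 without valsartan replicate 1.

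The valsartan difference was then set against the same difference in other mice, which share no library with it. The test asked whether the effect differs by strain or by schedule. The 129X1/SvJ prophylactic difference enters both contrasts. A gene named above for a small p therefore leans to the same sign in both, by its selection. Between 129X1/SvJ and C57BL/6J under the prophylactic schedule, 0 genes (0%) passed by edgeR and 2615 (14.0%) had an unadjusted p under 0.05. That count rested on 1 library, since it was 246 without C57BL/6J valsartan replicate 1, and with the 3 and 6 scores it was 295 and 452. Arhgap27 differed by -0.91 in 129X1/SvJ and 0.76 in C57BL/6J mice (difference -1.67, SE 0.46, adjusted p = 0.329 by edgeR). Lynx1 differed by 0.98 and -0.41 (difference 1.39, SE 0.44, adjusted p = 0.329), and Cbr2, a carbonyl reductase, by -0.87 and 0.88 (difference -1.75, SE 0.47, adjusted p = 0.329). The atrial and embryonic muscle light chain Myl4 differed by 3.02 and -0.63, and the mucus protein gene Fcgbp by -4.56 and 8.76.

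Between the prophylactic and therapeutic schedules in 129X1/SvJ mice, 0 genes (0%) passed and 346 (1.86%) had an unadjusted p under 0.05, with a smallest adjusted p of 1. Leaving out 1 library moved that count from 212, without therapeutic vehicle replicate 3, to 836, without therapeutic vehicle replicate 2, and the smallest adjusted p to as low as 0.506, without prophylactic valsartan replicate 1. Tnnc1 had the smallest p of the named genes, with 3.96 under the prophylactic and -1.77 under the therapeutic schedule (difference 5.73, SE 1.44, unadjusted p = 0.000502). Myh7, Myl2 and Myh6, myosins of cardiac and slow muscle, had the same signs. The mean Myh7 level was 28.0 CPM under valsartan and 0.0496 CPM under vehicle with prophylactic dosing, and 2.25 and 73.6 CPM with therapeutic dosing. Cbr2 differed by -0.87 under the prophylactic and 0.53 under the therapeutic schedule, and the -0.87 is the same value that enters the contrast by strain.

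The cholesterol list had a median of 0.12 in C57BL/6J mice under the prophylactic schedule and 0.01 in 129X1/SvJ mice under the therapeutic schedule, beside the 0.49 here. Cyp51 and Msmo1 were named for their p in the comparison here, and that difference enters both contrasts given next. Cyp51 differed by 0.09 in C57BL/6J mice and by -0.01 under the therapeutic schedule. The difference between its effects was 0.56 by strain (unadjusted p = 0.0865, adjusted p = 0.401 by edgeR) and 0.66 by schedule (unadjusted p = 0.0455, adjusted p = 1). That of Msmo1 was 1.05 by strain (unadjusted p = 0.0302, adjusted p = 0.33) and 0.67 by schedule (unadjusted p = 0.158, adjusted p = 1). Of the 765 genes with an unadjusted p under 0.05 here, 1 had the same direction and an unadjusted p under 0.05 in C57BL/6J mice (0.131% of these and 0.0512% of the 1952 there, which were 10.5% of genes tested), and 19 had the opposite one. Thymus content moved with that contrast: the thymus and T cell median was 6.86 and the proliferation median 2.61 in C57BL/6J mice, against -2.44 and -1.66 here, and its part was not tested. Under the therapeutic schedule in 129X1/SvJ mice 26 had the same direction (3.4% of these and 5.56% of the 468 there, 2.51% of genes) and 6 the opposite one. None of the 24 named genes was among those that recurred in either.

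Sacubitril/valsartan at 60 mg/kg/day under the same schedule was compared with the same 3 vehicle libraries, so its values are given side by side only. By edgeR 0 genes (0%) passed there and 471 (2.53%) had an unadjusted p under 0.05. Tnni1 differed by 4.17 (SE 1.59), Wt1 by 1.19 (SE 0.46), Tnnc1 by 1.34 (SE 1.00), Got1 by 0.24 (SE 0.36) and Pacs1 by -0.25 (SE 0.15). Cyp51 differed by 0.18 (SE 0.22) and Msmo1 by 0.42 (SE 0.32), with a cholesterol median of 0.15. Agtr1a differed by 0.08 (SE 0.36), and Agtr1b had 1, 2 and 9 counts.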

How the data were processed

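RNA of the ligated left carotid artery was sequenced from stranded mRNA libraries, per the labels' protocols, and 36 libraries in 12 groups of 3 were used, with groups taken from the labels. Reads were trimmed with Trimmomatic 0.36, aligned to GRCm38 with STAR 2.5.2b and counted with featureCounts of Subread 1.5.0p3, per the submitters' processing notes. The annotation release and the strand setting are not given in the sources used here. The deposited table holds raw counts per gene symbol (49568 symbols, 47240 of them in GENCODE M21, whose GRCm38 coordinates are printed). Counts of a gene and a near-identical copy, or of overlapping genes, may be mixed.

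Genes were filtered with filterByExpr over the 12 groups and scaled by TMM (factors 0.82 to 1.131). The test was edgeR's quasi-likelihood test (R 4.3.3, edgeR 4.0.16) with 12 group means over all 36 libraries (24 residual degrees of freedom), checked on simulated counts, with Benjamini-Hochberg adjustment over the 18628 genes of each comparison and a threshold of 0.05. Unadjusted p values in the report come from this test. The standard error of a log2 difference was derived from the quasi-likelihood F, and intervals are 95%. An exact permutation test of 3 against 3 libraries cannot go below 0.1. Pairs of replicates differed by far more than sampling noise (chi-square per degree of freedom 114 to 236).

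Alternatives were DESeq2 size factors, the DESeq2 1.42.0 Wald test, no count filter, only the libraries compared, tissue scores as covariates (mean log2 CPM of marker lists, prior count 2; 3 scores: skeletal muscle, adipocyte and Schwann cell; 6 scores: thymus, B cell, skeletal muscle, thyroid, adipocyte and sympathetic), the animal number as a covariate, and each library left out in turn. A fit that dropped the 16 Rag1-rich libraries (10 CPM of Rag1 or more) was chosen after seeing the data. The members, the 35 gene lists and the rules were chosen with earlier results of these data known.

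Genes were named by rule: Agtr1a, Agtr1b, Mme, Ren1 and Ace, then per direction 12 genes with separate libraries and at least 5 CPM in the higher group, ordered by p because none passed, then up to 3 members of smallest p per list and the markers Rag1, Cd79a, Tg, Acta1, Ucp1, Th and Myh11, with up to 6 genes per direction for the tests by strain and schedule. Other list members are named for their known role, after their values were seen. Some genes that these rules name are not reported here.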

Additional observations from a re-analysis of the deposited data

How the results depend on the processing

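The count of genes past the threshold was 0 in each direction under every edgeR alternative run for the valsartan comparison and for its differences by strain and by schedule. This includes each library left out in turn, where counts ran from 0 to 0 and the smallest adjusted p was 0.0692, without valsartan replicate 3. DESeq2's Wald test gave 4 lower genes in the valsartan comparison, 24 in the difference by strain and 1 in the difference by schedule, and no higher gene in any. The count of genes at an unadjusted p under 0.05 moved far more, from 765 to between 247 (without vehicle replicate 2) and 2368 (without valsartan replicate 3). It was 386 without valsartan replicate 1, 514 without valsartan replicate 2, 1100 without vehicle replicate 1 and 1392 without vehicle replicate 3. The fits with 1 library left out tested 19046 to 19083 genes. The count was 258 of 16520 genes with only the 6 libraries and 390 of 18628 with 3 scores. With the 6 scores it was 731, and the split turned from 540 higher and 225 lower to 342 and 389. With the animal number as a covariate it was 1091, 720 higher and 371 lower, and the smallest adjusted p was 0.702 by edgeR. Leaving out 1 library at a time gave ranges of -0.26 to 0.55 for Mme, -0.056 to 0.48 for Ren1 and -0.55 to 0.41 for Ace. Directions reversed for these 3 named genes, whose differences are near 0: Mme (-0.26 without valsartan replicate 3 and -0.60 without the Rag1-rich libraries), Ren1 (-0.056 without valsartan replicate 1) and Ace (-0.24 with the 6 scores, -0.16 without vehicle replicate 3, -0.55 without valsartan replicate 1 and -0.11 without the Rag1-rich libraries). The other 441 values of named genes under an alternative kept their direction, which the choice of genes with separate libraries largely fixes. Of the list medians, 361 moved by less than their spread and 24 by more. The cause of these shifts was not tested. No paired analysis was possible because the labels carry no replicate number. Depth limits the genes with few counts, such as Agtr1b and Ren1, more than the others.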
